A study of Mus musculus with 52 samples.

Results

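Hindlimb unloading under combined metformin and leucine was compared with normal cage activity in the gastrocnemius, a calf muscle, of aged mice. The comparison uses 8 of the 52 libraries of the series: the 4 whose labels name unloading with metformin plus leucine, and the 4 labelled as ambulatory controls. All genes in these libraries were examined. The libraries were picked by their labels, with earlier results of these data known. HU_ML stands for the unloaded mice given metformin and leucine in their drinking water (replicates 1, 4, 5 and 6), and AMB_W for ambulatory mice on plain water (replicates 2, 3, 4 and 5). All mice were male C57BL/6 of 22 to 24 months, and the labels name no allele or agent beyond these drinks. The series holds 13 groups of 4 libraries of total RNA depleted of ribosomal RNA: AMB_W, and 4 drinks at each of 3 times (end of unloading, and 7 or 14 days after weight bearing returned). Doses and the length of unloading are not given in the labels. HU_ML and AMB_W differ in both unloading and drink, so an effect of either alone cannot be told apart in this comparison; the unloaded groups on water (HU_W), metformin (HU_M) and leucine (HU_L) are therefore set beside it.

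When a hindlimb muscle stops bearing weight, its fibres shrink because protein breakdown outpaces protein synthesis. FoxO transcription factors drive the genes of ubiquitin ligases and autophagy, glucocorticoids act on many of the same genes, and the kinase complex mTORC1, which senses leucine, sets the rate at which ribosomes are built and used. Metformin, used against diabetes, acts on mitochondrial energy production and activates the energy sensor AMPK, which restrains mTORC1.

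The 8 libraries held 17285463 to 32492548 counts in HU_ML and 17986148 to 21053365 counts in AMB_W. Levels are given as CPM, the counts of a gene relative to the total of its library after TMM scaling. The fibre genes that define the tissue were abundant in every library, with a sum over 13 muscle fibre markers of 297518 to 372013 CPM in HU_ML and 330344 to 361870 CPM in AMB_W. 2 HU_ML libraries stood apart. HU_ML 4 was the deepest of the 8 libraries and lay farthest out on the first principal component, and HU_ML 4 and HU_ML 6 held 16.4 and 54 CPM of the liver transcript Alb, against at most 2.38 CPM in the other HU_ML libraries and 4.71 CPM in AMB_W. A 5.8S ribosomal RNA gene, a mark of how far ribosomal RNA was removed, was at 2.07 to 8.82 CPM in HU_ML and at 7.64 to 14.5 CPM in AMB_W, and mitochondrial transcripts took 11.2 to 12.6% of counts in HU_ML and 14.9 to 17.9% in AMB_W. Fits without these libraries, or with the 5.8S level as a covariate (152 changed genes in place of 345), are given beside the results they touch. The labels do not say that each library is 1 mouse, which was assumed, so p-values measure a spread between libraries. In the main fit that spread was estimated over all 52 libraries of the series, not from these 8 alone.

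Genes higher in HU_ML included the FoxO factor Foxo1, 9 of 22 glucocorticoid response genes and 6 of 25 cytosolic ribosomal protein genes, and genes lower in HU_ML included the chaperone gene Hsph1 and the secreted factor gene Ostn. Of 16668 genes tested, 345 changed (2.07%) at an adjusted p under 0.05 in edgeR's quasi-likelihood test. 209 were higher in HU_ML (1.25% of genes tested) and 136 were lower (0.816%). The median change was 1.7-fold among the higher genes and 1.51-fold among the lower genes, and 69 higher and 22 lower genes reached 2-fold. Protein-coding genes made up 178 of the higher and 120 of the lower genes. The median log2 fold change over all genes was 0.01, and the median standard error (SE) of a log2 fold change was 0.23.

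**Figure D1:**
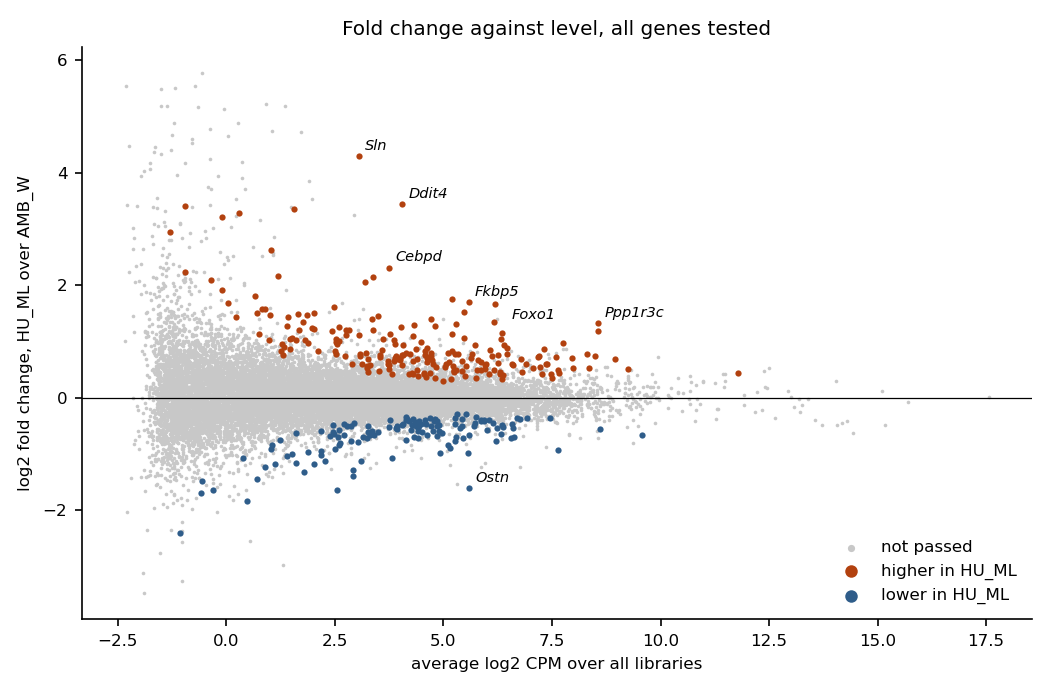
Log2 fold change of HU_ML over AMB_W (vertical axis) against the average log2 CPM over all libraries (horizontal axis), 1 point per gene tested. The 209 genes higher in HU_ML are orange, the 136 lower genes are blue and genes that did not pass are grey; Sln had the largest fold change among the labelled genes.

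The count of changed genes rested strongly on HU_ML 4. Without it 67 genes changed (47 higher, 20 lower), of which 65 were among the 345. HU_ML 4 was the highest of the 4 HU_ML libraries in 125 of the 209 higher genes (59.8%), against 24% of all genes tested, and the lowest in 73 of the 136 lower genes (53.7%), against 21.4% of all genes. Leaving out HU_ML 1, 5 or 6 gave 175, 260 or 441 changed genes, and leaving out AMB_W 2, 3, 4 or 5 gave 143, 196, 221 or 150. Without HU_ML 4 and HU_ML 6 together, a fit chosen after seeing the data, 106 genes changed (81 higher, 25 lower), and without all libraries of the series above 16 CPM of Alb 68 changed. Of 60 named changed genes, 19 kept their call in every fit that left out 1 library: Sln, Ddit4, Doc2b, Cebpd, Fkbp5, Foxo1, Spsb1, Teddm2, Abca1, Ostn, Lgi2, Wnt5a, Hsph1, Ppid, Map2k6, Eif4ebp1, Tfb1m, Ppp1r3c and Rps18. Of the 19, Sln, Doc2b, Cebpd, Abca1, Lgi2, Wnt5a, Ppid, Map2k6 and Tfb1m lost their call in 1 or more of the other alternatives. Cebpd, Doc2b, Foxo1, Ostn, Rps18, Spsb1, Teddm2, Tfb1m and Wnt5a overlap an annotated gene on the opposite strand. The strand setting of the counting is not given, so reads of such gene pairs may not have been told apart.

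**Figure D2:**
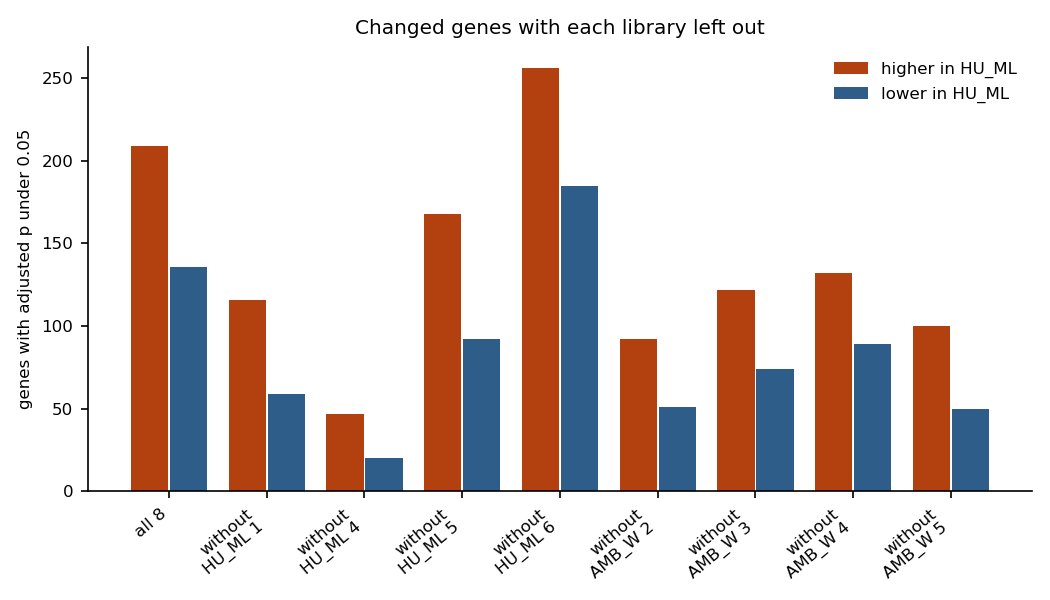
Number of genes with an adjusted p under 0.05 (vertical axis) that were higher (orange) or lower (blue) in HU_ML, with all 8 libraries and with each library left out (horizontal axis). Without HU_ML 4 the counts fell to 47 and 20, and without HU_ML 6 they were 256 and 185.

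Of 22 FoxO factors and atrophy ligases, 2 rose. Foxo1 (ENSMUSG00000044167, GRCm38 chromosome 3, 52268336 to 52353221, plus strand) encodes a FoxO factor that switches on wasting genes in muscle. It was at 146, 169, 88.1 and 67.3 CPM in HU_ML 1, 4, 5 and 6, against 33.4, 39.2, 39.6 and 36.6 CPM in AMB_W 2 to 5. Every HU_ML library lay above every AMB_W library, and HU_ML 1 and 4 were the highest. The rule that picked the 15 highest and 15 lowest log2 fold changes, Foxo1 among them, required groups without overlap. For those genes, here and below, the lack of overlap is therefore no separate support. The log2 fold change was 1.66 (SE 0.21, adjusted p = 5.43e-06), and it was 1.43 without HU_ML 4 (adjusted p = 0.000239). Klhl38, a kelch-domain gene induced in wasting muscle, was the other list member that rose, with a log2 fold change of 0.67 (SE 0.17, adjusted p = 0.0256). Its call was lost without AMB_W 2, 3 or 5 or HU_ML 4 (highest adjusted p = 0.287). No member fell, and the median over the list was 0.12. Among all genes tested 1.25% rose. Against AMB_W, 4 of the 22 rose in each of HU_M, HU_L and HU_W, where 2.47%, 2.54% and 1.95% of all genes rose. In the direct tests 0 of the 22 passed between HU_ML and any of these 3 groups.

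The ubiquitin ligase genes most used as marks of wasting did not pass the test in HU_ML. Trim63 (MuRF1) was at 250, 392, 190 and 202 CPM in HU_ML 1, 4, 5 and 6 and at 161, 161, 152 and 121 CPM in AMB_W 2 to 5, without overlap, with a log2 fold change of 0.80 (SE 0.26, adjusted p = 0.0905). It passed with DESeq2 (adjusted p = 0.046) and with limma voom (adjusted p = 0.0283). Fbxo32 (atrogin-1), the other main ligase of wasting, averaged 642 ± 44.3 CPM in HU_ML and 535 ± 46.1 CPM in AMB_W (SD, n = 4 each; log2 fold change 0.26, SE 0.23, adjusted p = 0.645). Foxo3, a second FoxO factor, averaged 48.4 ± 5.78 CPM in HU_ML and 37.4 ± 2.02 CPM in AMB_W (log2 fold change 0.37, SE 0.13, adjusted p = 0.132), and passed with limma voom (adjusted p = 0.018) and in a fit of the 8 libraries alone (adjusted p = 0.0454). None of the 28 proteasome subunits passed, with a list median of 0.04. Of 26 autophagy and lysosome genes, Map1lc3a, which encodes a protein of the autophagosome membrane, rose (log2 fold change 0.84, SE 0.18, adjusted p = 0.00522; 0.0798 without HU_ML 4).

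**Figure D3:**
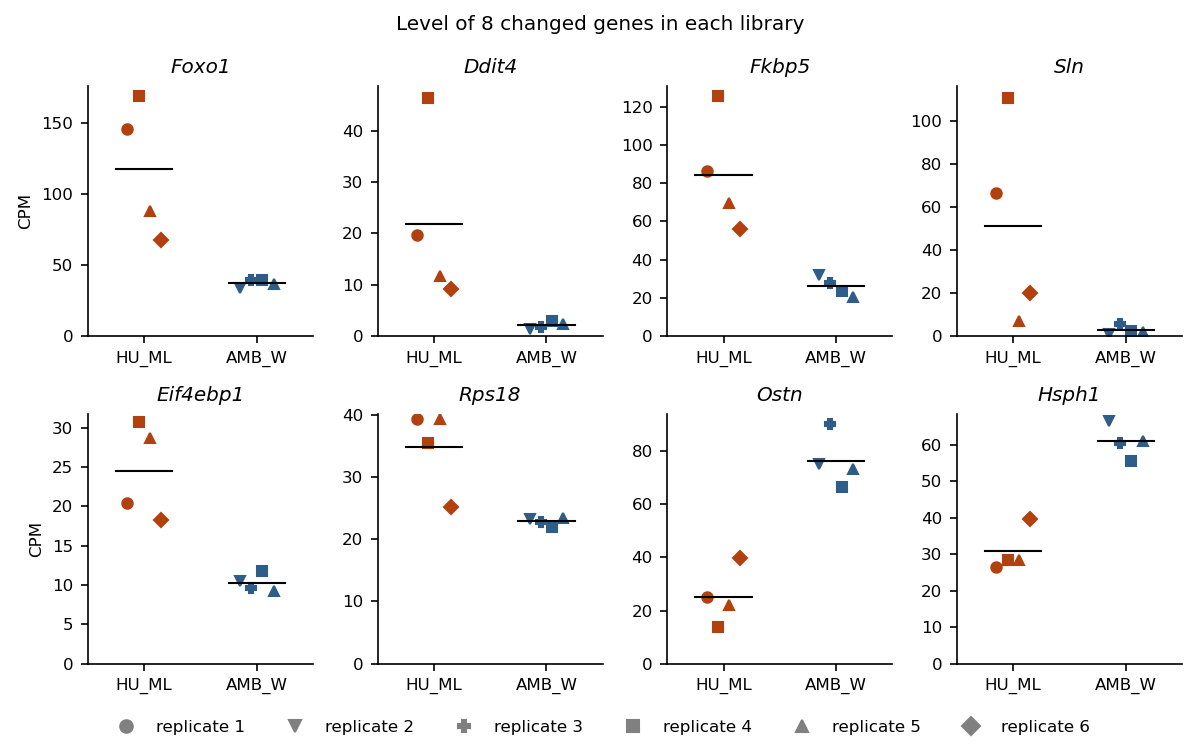
CPM (vertical axis, from 0) of 8 changed genes in each HU_ML library (orange, left) and each AMB_W library (blue, right); marker shapes give the replicate number and black lines the group mean. The groups do not overlap in any of the 8 genes, which the rule for named genes required for all of them except Eif4ebp1 and Rps18. HU_ML 4 is the highest HU_ML library for Foxo1, Ddit4, Fkbp5, Sln and Eif4ebp1 and the lowest for Ostn.

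Of the genes that control mTORC1 or sense leucine, 3 of 26 rose, 0 fell, and the list median was 0.12. Among all genes tested 1.25% rose. An unadjusted p under 0.05 was reached by 5 of the 26, against 14.4% of all genes tested. Against AMB_W, 3 of the 26 also rose in each of HU_M, HU_L and HU_W, and 1 fell in HU_M. Over all genes 2.47%, 2.54% and 1.95% rose in these groups. In the direct tests 0 of the 26 passed between HU_ML and any of them. Ddit4 (REDD1, ENSMUSG00000020108, chromosome 10, 59949669 to 59951834, minus strand), an inhibitor of mTORC1 that glucocorticoids and hypoxia induce, was at 19.7, 46.4, 11.6 and 9.19 CPM in HU_ML 1, 4, 5 and 6, against 1.25, 1.65, 2.86 and 2.31 CPM in AMB_W 2 to 5. The groups did not overlap, and the fitted change was 10.9-fold (log2 fold change 3.45, SE 0.50, adjusted p = 9.34e-05), or 6.71-fold without HU_ML 4 (adjusted p = 0.00293). Eif4ebp1, which encodes the repressor of cap-dependent translation that mTORC1 inactivates, was at 20.4, 30.7, 28.6 and 18.2 CPM in HU_ML 1, 4, 5 and 6 and at 10.4, 9.62, 11.8 and 9.23 CPM in AMB_W 2 to 5. Its log2 fold change was 1.26 (SE 0.21, adjusted p = 0.000277), and the groups did not overlap. Sesn1, a stress-induced leucine sensor upstream of mTORC1, rose by a log2 fold change of 0.75 (SE 0.18, adjusted p = 0.0163), but its HU_ML range of 13.8 to 33.3 CPM overlapped the AMB_W range of 10.9 to 14.2 CPM. The Sesn1 call was lost without AMB_W 2, AMB_W 3 or HU_ML 4 (highest adjusted p = 0.293).

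Genes of amino acid use moved in both directions. In the breakdown of branched-chain amino acids, 2 of 22 genes fell and 1 rose. Dbt, the core subunit of the complex that commits leucine, isoleucine and valine to oxidation, averaged 18.6 ± 1.98 CPM in HU_ML and 28.4 ± 3.82 CPM in AMB_W (log2 fold change -0.61, SE 0.15, adjusted p = 0.0244). Aldh6a1, a later enzyme of valine breakdown, averaged 96.4 ± 7.04 CPM in HU_ML and 125 ± 8.14 CPM in AMB_W (log2 fold change -0.38, SE 0.10, adjusted p = 0.0386). Klf15, a transcription factor that glucocorticoids induce and that activates branched-chain breakdown, rose instead, with a log2 fold change of 0.76 (SE 0.20, adjusted p = 0.0308). The list median was -0.28, and 11 of the 22 had an unadjusted p under 0.05, as did 14.4% of all genes tested. These 3 calls were weak. Dbt lost its call without AMB_W 3, AMB_W 5, HU_ML 1 or HU_ML 4 (highest adjusted p = 0.12), Klf15 in each such fit except those without AMB_W 3 or HU_ML 6 (highest 0.17), and Aldh6a1 in each except that without AMB_W 4 (highest 0.133). Of 18 amino acid transporters, Slc7a8 (LAT2), a carrier of large neutral amino acids, rose by a log2 fold change of 0.89 (SE 0.24, adjusted p = 0.037; 0.256 without HU_ML 4), and of 11 AMPK genes Prkaa1, a catalytic subunit, fell by 0.34 on the log2 scale (SE 0.10, adjusted p = 0.0481). Slc7a8 was also lost without HU_ML 1 or any 1 AMB_W library, and Prkaa1 in each such fit except that without HU_ML 6 (highest adjusted p = 0.166).

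Of 22 glucocorticoid response genes 9 rose and 0 fell, while 1.25% of all genes tested rose and 0.816% fell. All 22 fold changes were positive, with a median of 0.77, against a median of 0.01 over all genes tested. The list was chosen with earlier results of these data known, so its shared direction is no separate support. Their summed level was 2470 to 5482 CPM in the HU_ML libraries and 2031 to 2155 CPM in the AMB_W libraries. The 9 were Ddit4, Fkbp5, Cebpd, Arrdc2, Glul, Zbtb16, Arrdc3, Klf15 and Per1. Without HU_ML 4, 3 of the 22 rose (Ddit4, Fkbp5 and Cebpd), without HU_ML 4 and HU_ML 6 together 4 did, and without all libraries above 16 CPM of Alb 2 did.

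Fkbp5 (ENSMUSG00000024222, chromosome 17, 28399094 to 28517527, minus strand), a co-chaperone that dampens the glucocorticoid receptor and is one of its most used target genes, was at 86.4, 126, 69.6 and 56.2 CPM in HU_ML 1, 4, 5 and 6, against 31.8, 27.9, 23.6 and 20.4 CPM in AMB_W 2 to 5. The groups did not overlap, and the log2 fold change was 1.70 (SE 0.27, adjusted p = 0.000166), or 1.45 without HU_ML 4 (adjusted p = 0.00434). Cebpd, a transcription factor of stress and inflammation, was at 14.2, 48.3, 16 and 11.7 CPM in HU_ML 1, 4, 5 and 6 and at 4.84, 4.56, 4.99 and 3.92 CPM in AMB_W 2 to 5. Its log2 fold change was 2.31 (SE 0.39, adjusted p = 0.000605), and HU_ML 4 was far above the other HU_ML libraries. Without HU_ML 4 it was 1.61 (adjusted p = 0.0254), and the call was lost in a fit of the 8 libraries alone and without all libraries above 16 CPM of Alb (highest adjusted p = 0.0659). The gene on its opposite strand is Spidr. Glul, which encodes glutamine synthetase, averaged 590 ± 329 CPM in HU_ML and 260 ± 26.2 CPM in AMB_W (log2 fold change 1.18, SE 0.26, adjusted p = 0.00794), and Teddm2, which lies on the opposite strand and overlaps it, averaged 7.80 ± 3.46 CPM in HU_ML and 2.76 ± 0.33 CPM in AMB_W (adjusted p = 0.000162). The arrestin-domain genes Arrdc2 and Arrdc3 rose by log2 fold changes of 1.75 (SE 0.36) and 1.15 (SE 0.28), with adjusted p of 0.00522 and 0.0173, and Zbtb16 (PLZF), a zinc-finger factor, rose by 0.74 (SE 0.17, adjusted p = 0.00882). Without HU_ML 4 the adjusted p was 0.191 for Glul, 0.0542 for Arrdc2, 0.317 for Arrdc3 and 0.0774 for Zbtb16. Zbtb16 was also lost without HU_ML 1, and Arrdc3 without AMB_W 2 or AMB_W 5.

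Of 19 circadian clock genes, 3 rose (among them Per1 and Nfil3), 0 fell, and the median was 0.01. Per1, a core repressor of the clock that glucocorticoids also induce, averaged 116 ± 13.3 CPM in HU_ML and 56.6 ± 8.64 CPM in AMB_W, without overlap (log2 fold change 1.04, SE 0.29, adjusted p = 0.0437). Its call was lost in 7 of the 8 fits that left out 1 library, all but that without HU_ML 6 (highest adjusted p = 0.159). Nfil3, a clock output repressor, rose by a log2 fold change of 1.40 (SE 0.29, adjusted p = 0.00492; 0.109 without HU_ML 4). The time of day at which muscles were taken is not given in the labels, and its part was not tested.

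The sequences around the starts of these genes were read from RefSeq (GRCm38.p6), over 250 bases before to 50 after each start. The RefSeq start can differ from the GENCODE ends given above: the Fkbp5 window lies inside the GENCODE gene. The 5 windows shown are those of Ddit4, Fkbp5, Per1, Sesn1 and Ankrd23, chosen after their values were seen to cover the mTORC1, glucocorticoid, clock and stretch-response groups. Capitals mark the E-box letters CACGTG, which clock and bHLH factors bind, and the FoxO letters GTAAACA or their reverse complement TGTTTAC; Ddit4 held none of them. Per1, Sesn1 and Ankrd23 each have another window, at another start, which held none of them either and is not shown. The Sesn1 match lies after the start and the others before it. Windows picked in this way do not show how common a match is, and shares over all higher genes follow below. Each window is written 5′ to 3′ on the strand of its gene.
Ddit4, chr10:59951721-59952020, minus strand: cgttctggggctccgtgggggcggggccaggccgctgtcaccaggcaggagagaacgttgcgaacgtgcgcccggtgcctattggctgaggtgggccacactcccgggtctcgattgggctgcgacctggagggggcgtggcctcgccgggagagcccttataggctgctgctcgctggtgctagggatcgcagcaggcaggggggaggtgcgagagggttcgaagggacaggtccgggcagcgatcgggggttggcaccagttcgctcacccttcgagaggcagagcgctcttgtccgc
Fkbp5, chr17:28486100-28486399, minus strand: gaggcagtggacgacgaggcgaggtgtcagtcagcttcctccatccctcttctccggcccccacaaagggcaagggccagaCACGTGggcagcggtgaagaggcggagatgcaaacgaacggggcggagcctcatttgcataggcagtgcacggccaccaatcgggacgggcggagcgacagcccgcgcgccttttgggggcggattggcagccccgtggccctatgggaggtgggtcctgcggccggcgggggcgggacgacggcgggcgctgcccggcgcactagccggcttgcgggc
Per1, chr11:69098699-69098998, plus strand: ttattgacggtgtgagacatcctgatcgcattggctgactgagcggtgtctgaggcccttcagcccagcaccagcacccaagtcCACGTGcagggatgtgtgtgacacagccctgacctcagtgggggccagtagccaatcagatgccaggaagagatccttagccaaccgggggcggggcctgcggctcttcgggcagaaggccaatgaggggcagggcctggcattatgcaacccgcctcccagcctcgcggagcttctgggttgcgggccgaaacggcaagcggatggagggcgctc
Sesn1, chr10:41810324-41810623, plus strand: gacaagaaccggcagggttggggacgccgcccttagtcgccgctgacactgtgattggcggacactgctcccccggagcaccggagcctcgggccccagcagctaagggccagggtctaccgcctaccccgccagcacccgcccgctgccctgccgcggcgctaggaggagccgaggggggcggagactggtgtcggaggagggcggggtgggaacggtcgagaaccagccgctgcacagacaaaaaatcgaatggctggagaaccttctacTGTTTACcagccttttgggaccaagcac
Ankrd23, chr1:36536507-36536806, minus strand: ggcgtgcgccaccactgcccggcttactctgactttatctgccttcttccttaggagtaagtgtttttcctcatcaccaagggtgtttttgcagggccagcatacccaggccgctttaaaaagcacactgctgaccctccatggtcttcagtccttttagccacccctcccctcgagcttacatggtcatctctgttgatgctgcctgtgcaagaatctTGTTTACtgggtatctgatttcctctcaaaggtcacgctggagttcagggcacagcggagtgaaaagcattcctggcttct

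Windows were found for 144 of the 209 higher genes, 102 of the 136 lower genes and 11046 of the genes tested, with more than 1 window for genes with several starts. GTAAACA, on either strand, stood in 11 of 204 windows of higher genes (5.39%), 1 of 124 windows of lower genes (0.806%) and 376 of 14159 windows of all genes tested (2.66%). CACGTG stood in 13.7% of windows of higher genes, 12.1% of lower genes and 9.46% of all genes tested. AGAACA, part of the site that the glucocorticoid receptor binds, stood in 11.8% of windows of higher genes, 22.6% of lower genes and 13.1% of all. The CRE letters TGACGTCA (2.45%, 4.03% and 2.8%) and the AP-1 letters TGANTCA (5.39%, 6.45% and 5.33%) were searched on both strands as well, in higher, lower and all genes in that order. Windows of 1 gene can overlap and share a match, and a match is a description of letters, not of binding.

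Sln showed the largest fold change among the named genes. Sln (sarcolipin, ENSMUSG00000042045, chromosome 9, 53850164 to 53854560, plus strand) encodes a small membrane protein that uncouples the calcium pump of the sarcoplasmic reticulum, so that the pump burns ATP without moving calcium. It was at 66.4, 111, 7.09 and 19.9 CPM in HU_ML 1, 4, 5 and 6, against 0.83, 5.61, 2.30 and 1.56 CPM in AMB_W 2 to 5. The libraries of HU_ML spread widely, and HU_ML 5 lay close above the highest AMB_W library. The fitted change was 19.7-fold (log2 fold change 4.30, SE 0.67, adjusted p = 0.000208), with an adjusted p of 0.0884 in a fit of the 8 libraries alone. Without HU_ML 4 it was 11.9-fold (log2 fold change 3.58, adjusted p = 0.00434), and without AMB_W 3 the log2 fold change was 5.04.

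Fuel and lipid genes followed. Ppp1r3c, a subunit that brings protein phosphatase 1 to glycogen and favours glycogen storage, was at 742, 741, 365 and 481 CPM in HU_ML 1, 4, 5 and 6 and at 283, 260, 226 and 160 CPM in AMB_W 2 to 5. It was the 1 gene of 29 in the glycolysis and glycogen list to pass (log2 fold change 1.33, SE 0.23, adjusted p = 0.000835), and the groups did not overlap. Abca1, the exporter of cellular cholesterol, was at 137, 224, 92.8 and 94.5 CPM in HU_ML 1, 4, 5 and 6, against 52.9, 57.2, 60.7 and 45.5 CPM in AMB_W 2 to 5 (log2 fold change 1.34, SE 0.21, adjusted p = 0.000208). Slc25a25, a calcium-regulated carrier of ATP and phosphate in mitochondria, rose by a log2 fold change of 1.31 (SE 0.33, adjusted p = 0.0221), though its call was lost without any 1 of AMB_W 2 to 5, HU_ML 1 or HU_ML 4 (highest adjusted p = 0.121). Oxct1, the enzyme that lets muscle burn ketone bodies, was at 162, 82.9, 147 and 125 CPM in HU_ML 1, 4, 5 and 6, against 229, 277, 237 and 244 CPM in AMB_W 2 to 5. Its log2 fold change was -0.93 (SE 0.24, adjusted p = 0.0276), lost without HU_ML 4 (adjusted p = 0.191) and without AMB_W 2, 3 or 5. In insulin and IGF signalling, 2 of 24 genes rose, 0 fell: Pik3r1, the regulatory subunit of PI3-kinase (log2 fold change 0.77, SE 0.16, adjusted p = 0.00624; 0.0876 without HU_ML 4), and Igfbp3, which binds IGFs outside the cell (log2 fold change 0.72, SE 0.18, adjusted p = 0.0191; 0.197 without HU_ML 4, and lost also without AMB_W 2 or 5).

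The respiratory chain showed no called change. None of 30 nuclear-encoded subunits passed (median 0.01), and none of 28 genes of the citric acid cycle and fat oxidation did (median -0.18). All 13 mitochondrially encoded subunits had negative fold changes from -0.80 to -0.19 (median -0.45), and none passed; their summed level was 98335 to 116908 CPM in HU_ML and 138291 to 165682 CPM in AMB_W, without overlap. The share of mitochondrial counts given above moves with them. Of 17 regulators of mitochondrial biogenesis, Tfb1m, which methylates mitochondrial ribosomal RNA, fell to 4.23, 3.94, 3.79 and 2.98 CPM in HU_ML 1, 4, 5 and 6, against 5.41, 6.81, 5.60 and 6.17 CPM in AMB_W 2 to 5 (log2 fold change -0.68, SE 0.15, adjusted p = 0.00784). Its call was lost without a filter on low counts, with the 5.8S covariate, without all libraries above 16 CPM of Alb, and without HU_ML 4 and HU_ML 6 (highest adjusted p = 0.208). Tfb1m overlaps Tiam2 on the opposite strand.

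Other genes among the 15 highest log2 fold changes covered several roles. Doc2b, a calcium sensor of vesicle fusion, was at 2.50, 8.95, 2.45 and 2.13 CPM in HU_ML 1, 4, 5 and 6, against 1.09, 0.50, 0.84 and 0.17 CPM in AMB_W 2 to 5 (log2 fold change 2.63, SE 0.46, adjusted p = 0.00066). Spsb1, an adaptor of a cullin ubiquitin ligase, was at 8.58, 13.6, 5.89 and 5.48 CPM in HU_ML and at 1.87, 3.60, 3.19 and 2.31 CPM in AMB_W in the same library order (log2 fold change 1.62, SE 0.27, adjusted p = 0.000287). Without HU_ML 4 the adjusted p was 0.0378 for Doc2b, with a log2 fold change of 1.84, and 0.0131 for Spsb1. In a fit of the 8 libraries alone Doc2b lost its call (adjusted p = 0.0642). Depp1, an autophagy regulator that FoxO factors induce in human cells, Hr, a corepressor of nuclear receptors, Arhgap26, a GTPase-activating protein, and Hif3a, a hypoxia-inducible factor subunit, rose by log2 fold changes of 2.07, 1.53, 1.41 and 1.34, with SEs of 0.46, 0.35, 0.32 and 0.37 and adjusted p of 0.00922, 0.0125, 0.012 and 0.0413. These 4 were lost without HU_ML 4 (adjusted p of 0.204, 0.14, 0.227 and 0.228), where the log2 fold change of Depp1 was 1.29. Depp1 was also lost without AMB_W 2, Hr without AMB_W 5, and Hif3a without HU_ML 1 or any 1 AMB_W library. Hhipl1, a secreted relative of the hedgehog-binding protein, rose by 1.49 (SE 0.33, adjusted p = 0.00845; 0.0535 without AMB_W 2). HU_ML 4 was the highest HU_ML library in 14 of the 15 genes with the highest log2 fold changes.

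Of 25 cytosolic ribosomal protein genes tested, 6 rose and 0 fell (Rps18, Rpl13, Rplp0, Rps9 and Rps19 among those that rose), 24 had positive fold changes, and 17 had an unadjusted p under 0.05, against 14.4% of all genes tested. The median log2 fold change was 0.41, against 0.01 over all genes tested. Among all genes tested 1.25% rose and 0.816% fell. This list too was chosen with earlier results of these data known, so its shared direction is no separate support. Rps18 (ENSMUSG00000008668, chromosome 17, 33951999 to 33956001, minus strand), a protein of the small subunit, was at 39.4, 35.6, 39.3 and 25.2 CPM in HU_ML 1, 4, 5 and 6, against 23.2, 22.8, 22 and 23.5 CPM in AMB_W 2 to 5. The groups did not overlap, and HU_ML 6 was close to the AMB_W libraries. Its log2 fold change was 0.61 (SE 0.13, adjusted p = 0.00665), and it was 0.60 without HU_ML 4 (adjusted p = 0.037). HU_ML 6 was the lowest library of its group in these 5 genes.

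The calls of the other 4 of these were lost more often. Rpl13 of the large subunit rose by a log2 fold change of 0.70 (SE 0.17, adjusted p = 0.0148), Rplp0, the stalk base, by 0.60 (SE 0.14, adjusted p = 0.0151), and the small-subunit genes Rps9 and Rps19 by 0.56 (SE 0.15, adjusted p = 0.0299) and 0.75 (SE 0.20, adjusted p = 0.0327). Leaving out any 1 of AMB_W 2, HU_ML 1 and HU_ML 4 ended each of the 4 calls; Rpl13 was also lost without AMB_W 5, and Rps9 and Rps19 without AMB_W 3, 4 or 5 or HU_ML 5. Their highest adjusted p in these fits was 0.0844, 0.112, 0.124 and 0.121. Without HU_ML 4, 2 of the 25 rose; without HU_ML 6, 12 did; without both, 7 did; and without all libraries above 16 CPM of Alb, 8 did. Processed copies of ribosomal protein genes are common in the mouse genome, and the sources used here do not say how reads with several matches were counted, which leaves single values uncertain. The 5.8S ribosomal RNA level given above was lower in HU_ML, and with that level as a covariate 3 of the 25 rose.

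Among 44 microRNA genes tested, Mir133a-2, the precursor of a muscle microRNA, was the 1 that changed, and it was chosen after its values were seen. It was at 4.53, 3.04, 4.86 and 2.92 CPM in HU_ML 1, 4, 5 and 6, against 1.66, 1.80, 1.40 and 1.44 CPM in AMB_W 2 to 5, without overlap. The log2 fold change was 1.27 (SE 0.34, adjusted p = 0.0339), and the call was lost in every fit that left out 1 library except that without HU_ML 6 (highest adjusted p = 0.117). These libraries count longer RNA over the locus and not the mature microRNA.

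Lower genes included a secreted factor and 2 chaperones. Ostn (osteocrin or musclin, ENSMUSG00000052276, chromosome 16, 27307489 to 27351212, plus strand), a peptide that muscle secretes in response to activity and that protects natriuretic peptides from clearance, fell to 25.1, 13.9, 22 and 39.8 CPM in HU_ML 1, 4, 5 and 6, against 75.4, 90.4, 66.4 and 73.5 CPM in AMB_W 2 to 5. The groups did not overlap, as the rule for named genes required. The log2 fold change was -1.61 (SE 0.30, adjusted p = 0.00155), or -1.40 without HU_ML 4 (adjusted p = 0.0298). Hsph1 (Hsp110), which reloads the chaperone Hsp70, fell to 26.6, 28.4, 28.5 and 39.5 CPM in HU_ML 1, 4, 5 and 6, against 66.4, 60.5, 55.5 and 60.8 CPM in AMB_W 2 to 5 (log2 fold change -0.99, SE 0.15, adjusted p = 0.000162). Hsph1 was the 1 gene of 20 heat shock proteins to pass, and the list median was -0.11. Ppid, a cyclophilin that works with Hsp90, averaged 20.8 ± 1.77 CPM in HU_ML and 41 ± 8.67 CPM in AMB_W (log2 fold change -0.98, SE 0.19, adjusted p = 0.00263), and lost its call without all libraries above 16 CPM of Alb and without HU_ML 4 and HU_ML 6 (highest adjusted p = 0.0735).

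Other named genes that fell have several roles. Wnt5a, a ligand of non-canonical Wnt signalling, was at 2.15, 2.92, 2.68 and 2.13 CPM in HU_ML 1, 4, 5 and 6, against 4.06, 4.76, 6.28 and 5.13 CPM in AMB_W 2 to 5 (log2 fold change -1.02, SE 0.22, adjusted p = 0.00784). Its call was lost with the 5.8S covariate, without all libraries above 16 CPM of Alb, and without HU_ML 4 and HU_ML 6 (highest adjusted p = 0.0743). Map2k6, a kinase that activates p38, averaged 26.8 ± 5.24 CPM in HU_ML and 49.9 ± 7.41 CPM in AMB_W (log2 fold change -0.90, SE 0.17, adjusted p = 0.0024), and Lgi2, a secreted leucine-rich repeat protein of nerve cells, averaged 1.68 ± 0.19 CPM in HU_ML and 4.25 ± 1.13 CPM in AMB_W (log2 fold change -1.32, SE 0.29, adjusted p = 0.00784). Without all libraries above 16 CPM of Alb both were lost, and Lgi2 also without HU_ML 4 and HU_ML 6 (highest adjusted p = 0.0579 for Map2k6 and 0.0961 for Lgi2). Of 14 genes of proliferation and mitosis tested, Aurka, a spindle kinase, was the 1 that fell (log2 fold change -1.12, SE 0.26, adjusted p = 0.0104; 0.115 without HU_ML 4). Ube2c, the ubiquitin-conjugating enzyme of mitotic exit, fell by 1.65 on the log2 scale (SE 0.42, adjusted p = 0.0244), lost without AMB_W 3, AMB_W 5, HU_ML 4 or HU_ML 5 (highest adjusted p = 0.119). Ube2c overlaps Tnnc2, an abundant fast troponin gene, on the opposite strand, so its counts are uncertain. Rian, an imprinted noncoding RNA that carries small nucleolar RNAs, averaged 4.87 ± 0.76 CPM in HU_ML and 12.8 ± 6.43 CPM in AMB_W (log2 fold change -1.40, SE 0.30, adjusted p = 0.00645), and was lost without HU_ML 4 (0.0646) or AMB_W 5 (0.0932). Flrt1, Map9, Zfp493, Sh2d4a and Bex1 made up the rest of the 15 lowest, with log2 fold changes from -1.16 to -0.91, and each lost its call without at least 1 library: HU_ML 4 for 4 of them and AMB_W 5, HU_ML 1 or HU_ML 5 for Map9.

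Of 28 fibrillar collagens and matrix proteins 0 passed in either direction, 9 had an unadjusted p under 0.05, against 14.4% of all genes tested, and the median was -0.43. Col1a1, the main chain of fibrillar collagen, was at 18, 16.2, 22 and 14.8 CPM in HU_ML 1, 4, 5 and 6, against 50.2, 44.4, 68.9 and 42.7 CPM in AMB_W 2 to 5, without overlap. For Col1a1 the log2 fold change was -1.53 (SE 0.55, adjusted p = 0.146), Col1a2 had -1.24 (SE 0.38, adjusted p = 0.0755) and Col3a1 had -1.16 (SE 0.43, adjusted p = 0.159). In a fit of the 8 libraries alone, where the spread is estimated from these 2 groups, 8 of the 28 fell and 2 rose, and Col1a1, Col1a2 and Col3a1 passed at adjusted p of 0.00137, 0.00233 and 0.000356; DESeq2 called 3 of the 28 lower and limma voom 6. Of 28 matrix proteases, inhibitors and crosslinkers, P4ha1, a prolyl hydroxylase of collagen, was the 1 that fell (log2 fold change -0.59, SE 0.13, adjusted p = 0.00871; 0.121 without HU_ML 4). None of 15 basement membrane genes passed (median 0.01).

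Satellite cells, the stem cells of muscle, and the other cell types of the tissue showed few called changes. Of 16 satellite cell and myogenic factors, Sdc4, a surface proteoglycan of quiescent satellite cells that other cells also make, was the 1 that rose (log2 fold change 0.78, SE 0.20, adjusted p = 0.0243), and it lost its call without AMB_W 2, 3 or 5, HU_ML 1 or HU_ML 4 (highest adjusted p = 0.143). Pax7, the defining factor of these cells, was at 1.13, 1.94, 1.70 and 2.19 CPM in HU_ML 1, 4, 5 and 6 and at 1.61, 2.50, 1.85 and 2.54 CPM in AMB_W 2 to 5 (log2 fold change -0.28, SE 0.28, adjusted p = 0.697). In bulk muscle, fewer cells of a type and less RNA per cell cannot be told apart. None of 12 fibro-adipogenic progenitor markers (median -0.24), 12 endothelial markers (0.07), 15 macrophage markers (0.36), 11 adipocyte markers (0.08) and 11 Schwann cell markers (0.42) passed. Macrophage markers summed to 43.5 to 96.8 CPM in HU_ML and 43.1 to 56.8 CPM in AMB_W. Hepatocyte markers summed to 9.12 to 97.5 CPM in HU_ML and 9.36 to 22 CPM in AMB_W, and 0 of 15 passed.

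Fibre type genes did not pass either, at 0 of 14 slow and 0 of 15 fast fibre genes, with medians of 0.26 and -0.08. Myh7, the slow myosin heavy chain, varied widely within groups, at 774, 75.2, 478 and 21.8 CPM in HU_ML 1, 4, 5 and 6 and 24.8, 229, 421 and 344 CPM in AMB_W 2 to 5. HU_ML 4 and 6, the libraries with the most Alb, held the least Myh7 of the HU_ML group, and AMB_W 2 the least of its group. Among 13 stretch-responsive sarcomere genes, Ankrd23, a titin-binding protein, rose by a log2 fold change of 0.52 (SE 0.14, adjusted p = 0.0366), lost in 7 of the 8 fits without 1 library, all but that without HU_ML 6. Ppp1r15a, the brake of the integrated stress response, rose by 0.66 (SE 0.18, adjusted p = 0.037), lost without AMB_W 3, 4 or 5 or HU_ML 1, 4 or 5 (highest adjusted p = 0.191). Azin1, which spares ornithine decarboxylase in polyamine synthesis, fell by 0.53 on the log2 scale (SE 0.13, adjusted p = 0.0144), lost without AMB_W 2, AMB_W 5, HU_ML 4 or HU_ML 5 (highest 0.119).

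The other 3 unloaded groups were compared with the same 4 AMB_W libraries, so their values are set side by side and not tested for overlap. Higher and lower genes numbered 412 (2.47%) and 191 (1.15%) in HU_M, 423 (2.54%) and 201 (1.21%) in HU_L and 325 (1.95%) and 139 (0.834%) in HU_W. Of the 22 glucocorticoid response genes, 9 rose in HU_ML, 17 in HU_M, 18 in HU_L and 18 in HU_W, with medians of 0.77, 1.20, 1.20 and 1.27. The 25 ribosomal protein genes had medians of 0.41, 0.12, 0.13 and 0.12 in that order, with 6 rising in HU_ML and 0 in each of the others. Of 28 matrix genes 0 fell in HU_ML, 8 in HU_M, 6 in HU_L and 7 in HU_W, and 1 rose in each of the last 3. These counts alone do not show a difference between drinks, which was tested directly.

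Few genes passed the direct tests. HU_ML differed from HU_M in 25 genes (0.15%; 1 gene without HU_M 3, a library described with the red cell markers), from HU_L in 16 (0.096%) and from HU_W in 8 (0.048%); 1820, 1632 and 1038 genes had an unadjusted p under 0.05. None of the 22 glucocorticoid response genes, 25 ribosomal protein genes or 28 matrix genes passed between HU_ML and any of the 3. This does not show that the groups were alike. At an unadjusted p under 0.05, ribosomal protein genes numbered 15, 14 and 16 against HU_M, HU_L and HU_W (medians 0.29, 0.33 and 0.32). Glucocorticoid response genes numbered 8, 8 and 7 (medians -0.43, -0.38 and -0.35), and matrix genes 4, 2 and 2 (0.337, 0.235 and 0.195). Among all genes tested, 10.9%, 9.79% and 6.23% reached it. For Ddit4, which averaged 21.7 ± 17.1 CPM in HU_ML, 42.5 ± 23.7 in HU_M, 64.2 ± 28.2 in HU_L and 62.6 ± 26.8 in HU_W, the log2 difference of HU_ML from HU_W was -1.51 (SE 0.42, adjusted p = 0.248). Sln averaged 51.1 ± 47.4 CPM in HU_ML, 9.18 ± 3.69 in HU_M, 9.40 ± 4.93 in HU_L and 10.9 ± 6.80 in HU_W, and the log2 difference of HU_ML from HU_M was 2.47 (SE 0.60, adjusted p = 0.0694). Rps18 averaged 34.9 ± 6.68 CPM in HU_ML, 26.3 ± 2.68 in HU_M, 26.1 ± 2.12 in HU_L and 25 ± 3.38 in HU_W, with a log2 difference of 0.41 from HU_M (SE 0.13, adjusted p = 0.219). For Ddit4, Sln and Rps18 the difference from 1 group is given, and they passed against none of the 3 groups. Of the 345 genes that changed in HU_ML, 2 differed from HU_W (Gm38034 and AC154912.3), 4 from HU_M (these with Mindy1 and Mir133a-2) and 5 from HU_L (these 2 with Mindy1, Fam117b and Gm47644).

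A few immediate early genes, switched on quickly by activity or stress, differed between drinks. Of 24 tested, 0 rose in HU_ML against AMB_W, against 10 in HU_M, 5 in HU_L and 12 in HU_W. Among all genes tested 1.25%, 2.47%, 2.54% and 1.95% rose, in that order. In HU_ML 20 of the 24 fold changes were positive (median 0.48), and 7 had an unadjusted p under 0.05, as did 14.4% of all genes. The count that rose in HU_ML was 6 with limma voom, 4 in a fit of the 8 libraries alone, 2 with DESeq2 and 2 without HU_ML 6. In the direct test, 3 were lower in HU_ML than in HU_W. Fos was at 1.01, 3.72, 1.65 and 4.99 CPM in HU_ML 1, 4, 5 and 6 and averaged 28.5 ± 12.5 CPM in HU_W and 2.72 ± 0.66 CPM in AMB_W. Its log2 difference of HU_ML from HU_W was -3.31 (SE 0.65, adjusted p = 0.0223). Egr1 averaged 6.08 ± 1.97 CPM in HU_ML, 28.3 ± 8.54 CPM in HU_W and 9.25 ± 2.22 CPM in AMB_W (log2 difference from HU_W -2.21, SE 0.42, adjusted p = 0.0179). Fosb averaged 0.22 ± 0.09 CPM in HU_ML, 6.24 ± 5.71 CPM in HU_W and 0.30 ± 0.24 CPM in AMB_W (log2 difference from HU_W -4.84, SE 0.79, adjusted p = 0.00186). Egr1 and Fosb were also lower than in HU_M (log2 difference -2.15, adjusted p = 0.0332, and -4.35, adjusted p = 0.0252), and none of the list differed from HU_L. Fos lost its call against HU_W without HU_ML 1, HU_ML 5, HU_W 1, HU_W 2 or HU_W 3 (highest adjusted p = 0.235), Egr1 without HU_ML 1, HU_ML 5 or HU_W 1 (highest 0.217), and Fosb in no fit that left out 1 library, though its log2 difference was -3.999 without HU_W 1 (adjusted p = 0.0458). All 3 were lost in a fit of these 2 groups alone, without all libraries above 16 CPM of Alb, and without HU_ML 4 and HU_ML 6; Fos and Egr1 were also lost without a filter on low counts and Fosb with limma voom. The highest adjusted p in these fits was 0.242 for Fos, 0.328 for Egr1 and 0.471 for Fosb. The fit without libraries above 16 CPM of Alb also lacked HU_W 1 and HU_W 2, at 17.2 and 30.5 CPM. Over all alternatives the log2 difference from HU_W ranged from -4.39 to -3.06 for Fos and from -2.60 to -2.01 for Egr1. For Fosb it ranged from -5.56 to -3.15.

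Red blood cell transcripts and 2 other genes also differed between drinks in the fit of all libraries. Of 9 erythroid markers, 0 rose in HU_ML, 8 in HU_M, 0 in HU_L and 6 in HU_W against AMB_W. Among all genes tested 1.25%, 2.47%, 2.54% and 1.95% rose, in that order. All 9 fold changes were nonetheless positive in HU_ML, and the list medians were 1.20, 3.81, 1.315 and 3.20. Alas2 passed in HU_ML in a fit of the 8 libraries alone (log2 fold change 1.40, adjusted p = 0.0149). In the direct test, 4 markers were lower in HU_ML than in HU_M. In HU_M the markers summed to 307.2 CPM in HU_M 3 and to 82 to 112.1 CPM in the other 3 libraries. Without HU_M 3, a fit added after seeing these sums, 3 markers rose in HU_M and 0 were lower in HU_ML than in HU_M. In that fit 1 gene differed between HU_ML and HU_M, in place of 25, and 279 changed in HU_M against AMB_W, in place of 603. Hbb-bs, a beta globin, averaged 4.30 ± 2.31 CPM in HU_ML, 29.7 ± 31.4 in HU_M, 7.77 ± 1.84 in HU_L, 18.2 ± 6.38 in HU_W and 1.87 ± 0.79 in AMB_W, with a log2 difference of -2.79 from HU_M (SE 0.58, adjusted p = 0.0332). Alas2, the first enzyme of haem synthesis in red cells, had a log2 difference of -2.51 from HU_M (SE 0.54, adjusted p = 0.0332). Without HU_M 3 these were -1.72 for Hbb-bs (adjusted p = 0.417) and -1.25 for Alas2 (adjusted p = 0.582), and Egr1 and Dupd1 lost their calls against HU_M (0.0789 and 0.204), while Fosb kept its call (0.0196). Globin copies share sequence, so single globin values are uncertain, and the amount of blood in the muscles was not tested. Dupd1 (Dusp29), a muscle phosphatase, was higher in HU_ML than in HU_W (18.9 ± 8.56 and 7.71 ± 2.10 CPM, log2 difference 1.29, SE 0.27, adjusted p = 0.0417) and than in HU_M (1.24, adjusted p = 0.0332). Pan3, a subunit that starts the shortening of mRNA tails, was lower than in HU_W (44 ± 1.63 and 62.7 ± 9.97 CPM, log2 difference -0.51, SE 0.11, adjusted p = 0.0493) and than in HU_L (-0.49, adjusted p = 0.0453). Against HU_W, Dupd1 was lost without HU_ML 1, HU_ML 6, HU_W 1, HU_W 2 or HU_W 3 (highest adjusted p = 0.449) and Pan3 without HU_ML 1, 5 or 6 or HU_W 1 or 2 (highest 0.306).

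**Figure D4:**
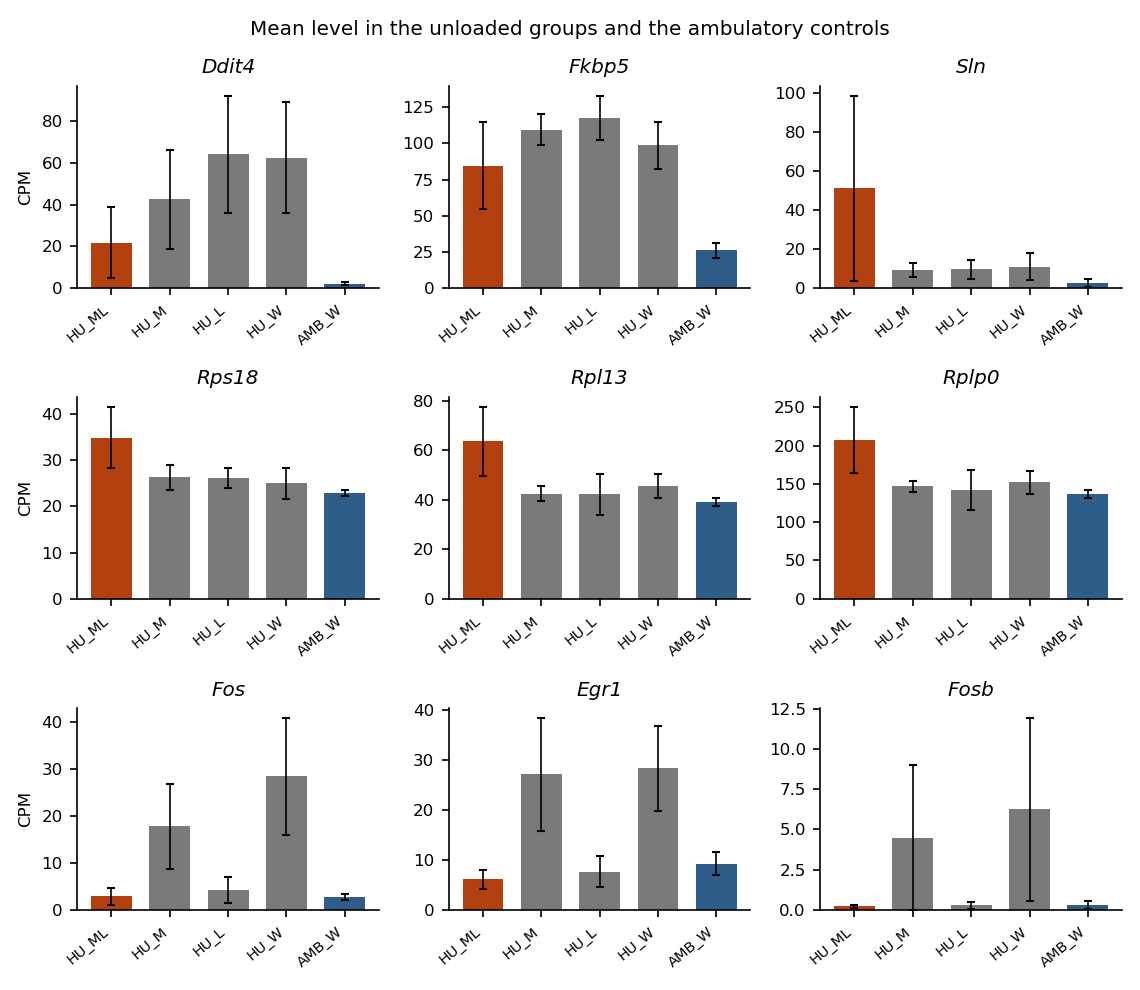
Mean CPM (vertical axis, from 0) with SD (n = 4 each; the lower bar stops at 0) of 9 genes in HU_ML (orange), HU_M, HU_L and HU_W (grey) and AMB_W (blue). Fos, Egr1 and Fosb were near AMB_W levels in HU_ML and HU_L and higher in HU_M and HU_W, and the 3 ribosomal protein genes were highest in HU_ML.

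Mice on the combination were also sampled after 7 and 14 days of reloading (RL7_ML and RL14_ML, n = 4 each). Foxo1 averaged 37.2 ± 2.84 CPM in AMB_W, 118 ± 47.8 in HU_ML, 24.2 ± 2.81 in RL7_ML and 31.2 ± 4.80 in RL14_ML. Fkbp5 averaged 25.9 ± 4.99 CPM in AMB_W, 84.5 ± 30.1 in HU_ML, 18.6 ± 2.68 in RL7_ML and 18 ± 4.55 in RL14_ML. Both genes were thus near or below the AMB_W mean by day 7. Rpl13 averaged 39.1 ± 1.45 CPM in AMB_W, 63.7 ± 14 in HU_ML, 75.3 ± 15.9 in RL7_ML and 35.5 ± 5.34 in RL14_ML, so that its mean was highest in RL7_ML. Rps18 averaged 22.9 ± 0.64 CPM in AMB_W, 34.9 ± 6.68 in HU_ML, 31.9 ± 6.09 in RL7_ML and 20.8 ± 0.66 in RL14_ML. Ostn averaged 76.4 ± 10.1 CPM in AMB_W, 25.2 ± 10.8 in HU_ML, 43 ± 5.33 in RL7_ML and 44 ± 14.1 in RL14_ML, where the means of both reloaded groups lay between those of HU_ML and AMB_W. These levels are descriptions, and the steps between the stages were not tested.

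**Figure D5:**
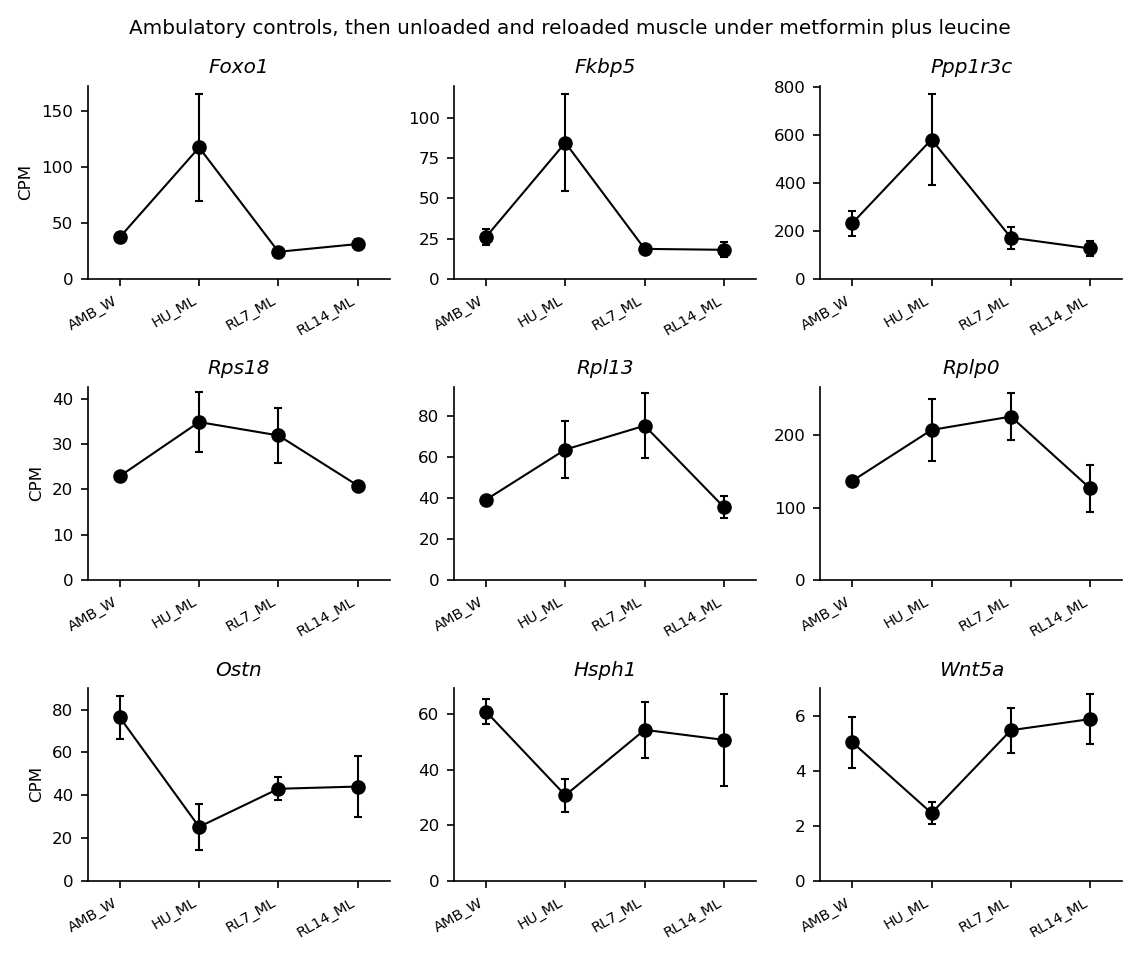
Mean CPM (vertical axis, from 0) with SD (n = 4 each) of 9 genes in AMB_W, HU_ML, RL7_ML and RL14_ML (horizontal axis). Foxo1, Fkbp5 and Ppp1r3c were high in HU_ML alone, the 3 ribosomal protein genes were high in HU_ML and RL7_ML, and Ostn, Hsph1 and Wnt5a were lowest in HU_ML.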

How the data were processed

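The authors deposited 1 table of raw counts, whole numbers per Ensembl gene and library, with no normalization. Per the submitters' processing notes, the build was GRCm38 and the tools included STAR 2.7.3a, featureCounts 1.6.3 and DESeq2 1.30.0; the strand setting and the handling of reads with several matches are not given in the sources used here. Per the labels' protocols, RNA was extracted from gastrocnemius, treated with DNase, and made into stranded libraries after removal of ribosomal RNA. Symbols, types and positions came from GENCODE vM21 (GRCm38); a name was found for 55227 of 55487 identifiers, with 113 symbols shared by several genes. Promoter windows came from RefSeq (GRCm38.p6).

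Columns were assigned to samples by the sample codes in their titles, and 8 libraries entered the comparison. The filterByExpr step of edgeR 4.0.16 (R 4.3.3), at its count minimum of 10, kept 16668 genes, and TMM scaled the libraries. A robust quasi-likelihood model with a mean per group was fitted to all 52 libraries (13 groups, 39 residual degrees of freedom), with Benjamini-Hochberg adjustment of the p-values across the 16668 genes; an adjusted p under 0.05 counted as changed. The SE of a log2 fold change was taken from the F statistic. Levels are CPM with the SD between 4 libraries.

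The libraries, the 48 gene lists and the rule for named genes were chosen with earlier results of these data known. From the changed genes whose libraries did not overlap between groups, whose average log2 CPM reached 1 and whose names were not predicted or clone names, the rule took the 15 with the highest and the 15 with the lowest log2 fold change. It added up to 3 rising and 3 falling changed members per list, any list member with its values, and the genes that differed most between HU_ML and HU_W. For genes outside the rule the text says that they were picked with their values known. Some items are not reported here and stay out of the counts of named genes.

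Alternatives were DESeq2 1.42.0, limma 3.58.1 voom with quality weights, RLE size factors in place of TMM, all genes kept whatever their counts, a fit of the 8 libraries alone, a replicate block, the 5.8S ribosomal RNA level as a covariate, all libraries above 16 CPM of Alb left out, each library of the comparison left out, and, added after seeing the data, HU_ML 4 with HU_ML 6, or HU_M 3, left out. The steps were tested on simulated data with known changes between HU_ML and AMB_W. The test recovered 46.3% of 1.5-fold, 89.6% of 2-fold and 98.5% of 4-fold changes. Of its 169 calls, 13 were false. Changes of 1.5-fold were thus often missed, so a gene that did not pass may still have changed. Counts of replicate pairs within HU_ML and within AMB_W differed by 8.43 to 45 chi-square units per degree of freedom. None of these 8 libraries was thus a duplicate of another in its group.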

Additional observations from a re-analysis of the deposited data

Results flagged for a closer look

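Single libraries lay far from the other 3 of their group in 16 of 164 groups of 4 values examined. Chance gives such a gap in about 1 in 20 groups. The Alb values of AMB_W entered the 16 more than once, so the 16 are not all distinct. In HU_ML 4 this held for Doc2b at 8.949 CPM, Cebpd at 48.34, Arhgap26 at 73.46, Klhl38 at 114.1, Pik3r1 at 127, Igfbp3 at 20.57 and Arrdc3 at 232.1 CPM, all above the others, and for Flrt1 at 1.261 CPM, below them. In other HU_ML libraries it held for Ube2c at 1.789 CPM in HU_ML 1 and Hsph1 at 39.51 CPM in HU_ML 6, each the highest of its group. In AMB_W it held for Rian at 22.32 CPM and Map2k6 at 60.89 CPM in AMB_W 5, for Map1lc3a at 37.21 CPM and Alb at 4.707 CPM in AMB_W 3, and for the 10 most abundant genes' share of counts, 44.91% in AMB_W 5.

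Some named genes responded differently under the combination than under another drink, by a direct test of the difference. The log2 fold change of HU_ML against HU_W was 1.29 for Dupd1, -3.31 for Fos, -2.21 for Egr1, -0.51 for Pan3 and -4.84 for Fosb. Against HU_M it was 1.24 for Dupd1, -2.15 for Egr1, -4.35 for Fosb, -2.79 for Hbb-bs, -2.51 for Alas2 and 1.72 for Mir133a-2; without HU_M 3, Fosb was the 1 of these 6 that kept its call. Against HU_L it was -0.49 for Pan3.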

How the results depend on the processing

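HU_ML changed 345 genes against AMB_W (209 higher, 136 lower). RLE size factors gave 337. With DESeq2 546 changed (250 lower), with limma voom 1352 (752 higher, 600 lower), without a filter on low counts 169 (127 and 42), in the 8 libraries alone 612 (348 and 264), with the 5.8S covariate 152 (113 and 39), without all libraries above 16 CPM of Alb 68 (57 and 11), and without HU_ML 4 and HU_ML 6, a fit added after seeing the data, 106 (81 and 25). Leaving out 1 library gave 67 to 441 (47 to 256 higher, 20 to 185 lower). The 8 genes that differed between HU_ML and HU_W became 23 with DESeq2, 59 with limma voom, 2 without a filter, 5 in the 8 libraries alone, 3 without libraries above 16 CPM of Alb, and 2 to 17 without 1 library. The cause of these shifts was not tested.

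Replicate numbers 4 and 5 occur in both groups. The deviations of those pairs correlated at -0.0141 and -0.00493, within the range of the other pairs (-0.171 to 0.262). With 2 such pairs, this cannot decide whether the numbers pair the libraries. With a replicate block 385 genes changed, and 13 differed between HU_ML and HU_W.

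10 of the 60 named changed genes kept their call in every alternative run: Ddit4, Fkbp5, Foxo1, Spsb1, Teddm2, Ostn, Hsph1, Eif4ebp1, Ppp1r3c and Rps18. Genes that did not pass changed sign against AMB_W in some fits. Fos was at -0.28 with limma voom, -0.13 with the block, -0.87 with the 5.8S covariate, -1.01 without libraries above 16 CPM of Alb, -1.01 without HU_ML 4 and HU_ML 6, and -0.30 to 0.32 without 1 library. Without 1 library, Dupd1 ranged over -0.03 to 0.49, Myh7 over -0.41 to 0.79 and Fosb over -0.79 to 0.19. Alb was at -0.34 without libraries above 16 CPM of Alb and -0.43 without HU_ML 4 and HU_ML 6.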
